A study of Mus musculus with 2 samples.

Results

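The genes described here are 38 genes of the primary cilium, taken by name from the gene tables of a total RNA-seq study of embryonic mouse hindbrain. They comprise 15 genes of the transition zone, 11 of intraflagellar transport, 6 of the BBSome, 4 of the ciliary membrane and axoneme and 2 of the centriole, out of 43346 genes in the tables. All 38 members were found in both tables by matching Ensembl identifiers to symbols, with Talpid3 standing there as 2700049A03Rik. The study holds 1 group of 2 libraries, without a treatment, mutation or second tissue to compare. Both came from hindbrain of healthy mouse embryos of strain B6NCrl at day 15.5, with males and females pooled, 78 embryos for replicate 1 and 62 for replicate 2. The input of each library was 10 ng of RNA, limited to molecules above 200 nt, to which spike-in RNA was added. The labels call the pools biological replicates, and differences between them describe these 2 libraries, so no test was made.

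The primary cilium is a single, non-motile, microtubule-based projection of the cell surface that grows from the mother centriole. Kinesin-2 motors and the IFT-B particle carry cargo to its tip, dynein-2 and the IFT-A particle carry it back, the BBSome sorts membrane proteins for exit, and the transition zone at its base gates what enters. In the developing hindbrain, granule cell progenitors of the cerebellum need the cilium to respond to Sonic hedgehog, and mutations in many of these genes cause Joubert syndrome and related cerebellar malformations, Meckel syndrome or Bardet-Biedl syndrome in humans.

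Genes of the cilium are known targets of the RFX transcription factors, which bind a paired sequence called the X-box, so the promoter windows of the members were searched for it first. Each window ran from 250 bases before to 50 bases after the transcription start given by RefSeq on GRCm38.p6, and 35 of the 38 members had one. Tmem67, Ift80 and Ift122 were not matched. The X-box, with purines and pyrimidines set at its variable positions, its half-sites 0 to 3 bases apart and either strand allowed, was present in 9 of the 35 windows, 25.7%, against 1.75% of the windows of all 27025 genes in the table. It stood in 6 of 14 transition zone windows, 42.9%, in 1 of 9 intraflagellar transport windows and in 1 of 6 BBSome windows. Of 77 other cilium genes 5 held it, 6.49%, and of 20 genes of motile cilia 6 held it, 30%. These letters are a sequence match, and no binding was measured here.

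The 5 sites in the 4 most highly expressed of these members are shown with the motif in capitals, read 5′ to 3′ on the strand of the gene, because they carry the feature that the promoters share. Position 1 is the first transcribed base in RefSeq.
Ahi1, chr10:20952560-20952589, plus strand, motif at 22 to 35: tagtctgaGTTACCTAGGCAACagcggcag
Ift57, chr16:49699199-49699228, plus strand, motif at -87 to -74: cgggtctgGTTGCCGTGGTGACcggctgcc
Ift57, chr16:49699226-49699255, plus strand, motif at -60 to -48: gccctgcgGTTGCCTGGTAACggtggggac
Tmem237, chr1:59120102-59120131, minus strand, motif at -27 to -14: tagtcagcGTTGCCATGGCGACgcctccgg
B9d2, chr7:25680788-25680817, plus strand, motif at 17 to 30: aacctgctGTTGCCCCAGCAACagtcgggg

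All 3 tectonic genes, whose products form part of the transition zone's membrane complex, also held a site, as did Cep41 and Bbs1. These 5 genes were added to the display after their matches had been seen.
Tctn1, chr5:122264411-122264440, minus strand, motif at 37 to 50: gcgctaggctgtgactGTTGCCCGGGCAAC
Tctn2, chr5:124598679-124598708, plus strand, motif at -62 to -49: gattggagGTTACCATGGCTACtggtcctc
Tctn3, chr19:40612350-40612379, minus strand, motif at -140 to -128: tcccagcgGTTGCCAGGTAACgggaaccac
Cep41, chr6:30693858-30693887, minus strand, motif at -131 to -117: gtcccgcGTTGCCCTTGGCAACcattgagc
Bbs1, chr19:4906605-4906634, minus strand, motif at 2 to 15: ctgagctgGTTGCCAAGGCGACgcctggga

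Of the 10 sites, 6 lay before the RefSeq start and 4 lay after it, in transcribed sequence. The GENCODE M21 annotation places the first base of Ift57 at 49699233 and that of Tmem237 at 59120408. By those bounds the second Ift57 site and the Tmem237 site also lay within the gene. Starts named below are those of RefSeq. The half-site GTTGCC, or its reverse complement, was within 9 of the 10. Ift57 alone had a pair of sites, 13 bases apart. Its 250 bases before the start, chr16:49699044-49699293 on the plus strand, show both in capitals in their setting: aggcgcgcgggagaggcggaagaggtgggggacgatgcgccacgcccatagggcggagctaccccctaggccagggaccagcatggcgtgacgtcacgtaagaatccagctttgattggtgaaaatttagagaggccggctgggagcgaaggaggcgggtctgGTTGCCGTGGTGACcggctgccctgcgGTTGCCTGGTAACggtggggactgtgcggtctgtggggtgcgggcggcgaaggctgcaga

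The share of windows with a match moved with how the motif was written, while the members' share was above that of all genes in each version. The half-site GTTGCC, on either strand, was in 22 of the 35 windows, 62.9%, against 14.1% of all genes. A looser pair, GTNNCC and NGNAAC 0 to 3 bases apart on either strand, which includes every X-box, was in 15 windows, 42.9%, against 5.94%. With only the bases before the RefSeq start, the X-box was in 5 windows, 14.3%, against 1.49%.

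**Figure D1:**
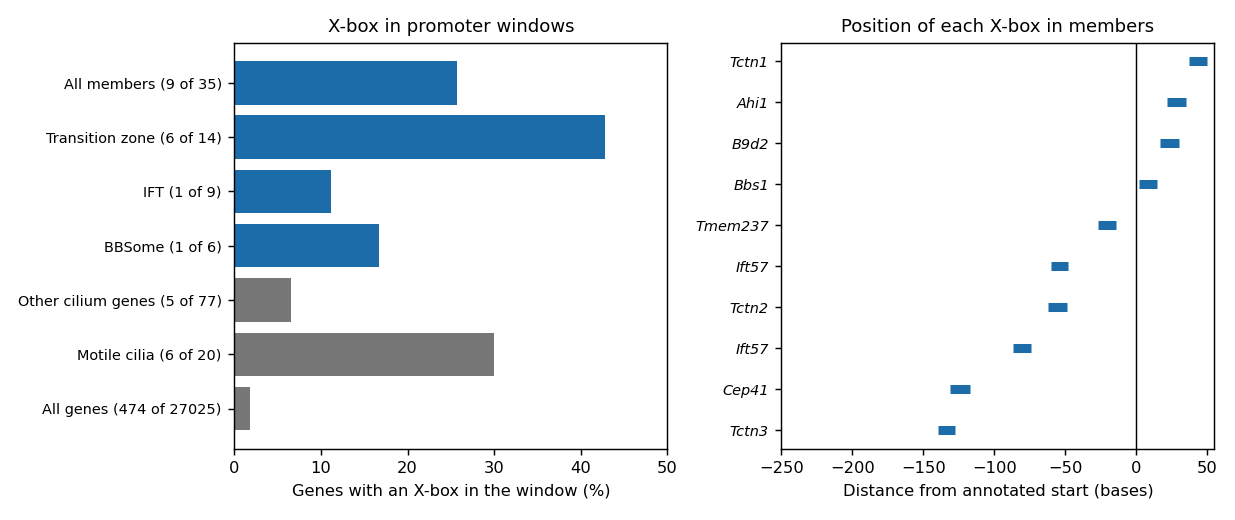
Left, percent of promoter windows holding an X-box in the members, in their role groups (IFT is intraflagellar transport), in other cilium genes, in motile cilia genes and in all genes of the table, with the counts in the labels. Right, the position of each of the 10 sites in members, in bases from the start annotated in RefSeq (vertical line). The transition zone bar stands at 42.9% and that of all genes at 1.75%.

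All 38 members were detected, defined as at least 1 TPM (the usual unit of transcript abundance, corrected for transcript length and scaled to the library) in both libraries, where 63.1% of 21461 nuclear protein-coding genes were. The members' median was 15.2 ± 0.113 TPM (SD of the library medians, n = 2), against 5.72 for all coding genes and 19.4 for those detected. Of the members 32 lay above the first of these coding medians and 15 above the second. Their reads numbered 209.68 for Tctn1 in replicate 1 to 9330 for Ahi1 in replicate 2, of 40020322 and 43263959 counts in genes. For a member of median length, 3 counts correspond to 0.0448 and 0.0409 TPM, far below any member's level. Because the tissue was taken whole, fewer ciliated cells and less RNA per cell cannot be told apart in any of these levels.

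Levels spanned a 64.8-fold range, from 2.67 ± 0.106 TPM for Cep290 to 172.6 ± 6.76 TPM for Arl3. The intraflagellar transport group had the highest median, 22.6 ± 1.71 TPM. The BBSome followed at 17.6 ± 0.541 TPM, the membrane and axoneme genes at 15.4 ± 0.438 TPM and the transition zone at 12.7 ± 1.13 TPM. The centriole pair had 7.17 ± 0.279 TPM. The members' values overlapped between all 5 groups, and members with longer transcripts had lower TPM (Spearman's rho = -0.69 over the 38 members and -0.26 over all detected coding genes, which are not independent replicates).

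**Figure D2:**
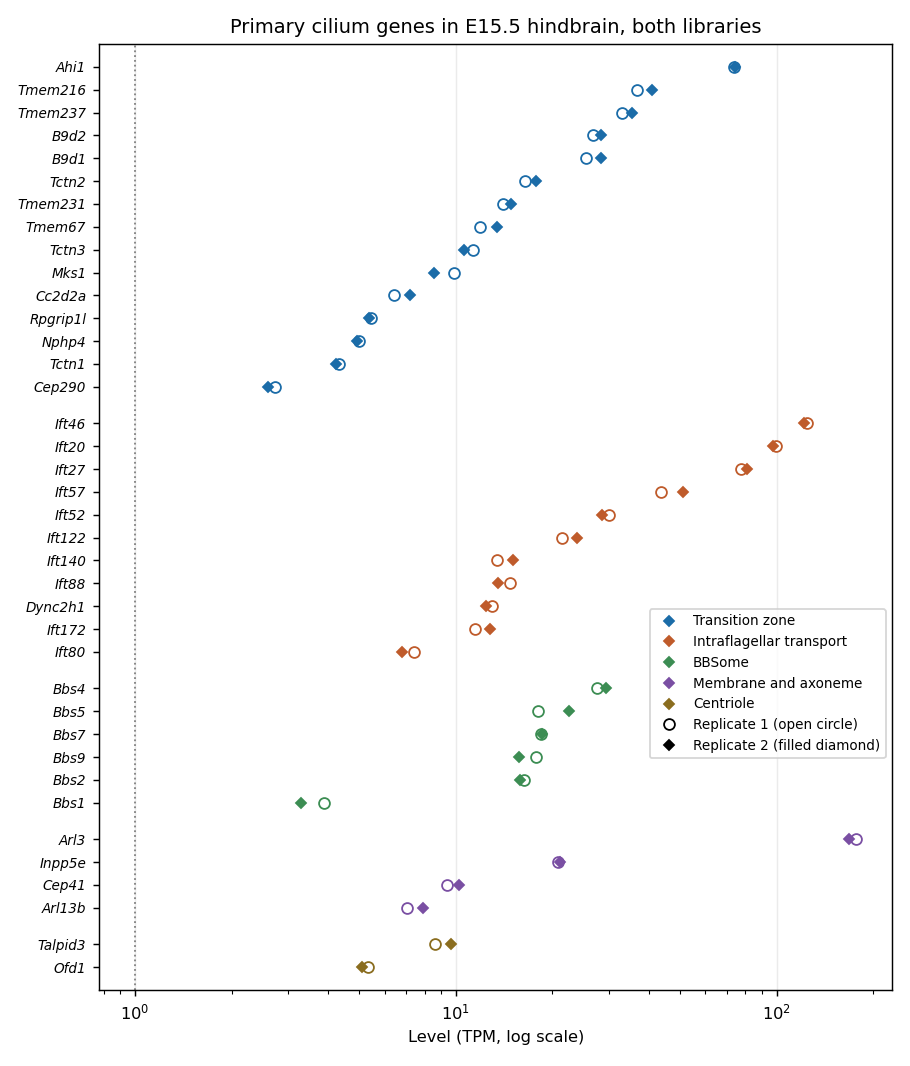
Level of each member in TPM (log scale) in replicate 1 (open circles) and replicate 2 (filled diamonds), grouped by role and coloured by group, with the detection limit of 1 TPM as a dotted line. Arl3, Ift46 and Ift20 stand at the right, Cep290 and Bbs1 at the left, and each pair of symbols lies close together relative to the range across genes.

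Among the transition zone genes Ahi1 (ENSMUSG00000019986.12, chr10:20952547-21080429 on GRCm38), which encodes jouberin and is mutated in Joubert syndrome, was highest, at 73.62 and 74.23 TPM in replicates 1 and 2. Its TPM differed least between the pools of all members, with a coefficient of variation of 0.583%. On scaled counts, compared below, its log2 ratio of -0.05 was not the closest to equality. The tetraspan membrane protein gene Tmem216 had 36.76 and 41.01 TPM, and Tmem237, another membrane protein gene of the zone, 32.93 and 35.51 TPM. All 3 lay above the median of detected coding genes in both pools.

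The B9 domain genes encode small proteins that join the tectonics and Mks1 in the Meckel syndrome complex. B9d2 had 26.74 and 28.26 TPM, and B9d1 had 25.42 and 28.32 TPM. Mks1, the third B9 domain gene, was lower than both in each pool, at 9.89 and 8.53 TPM. The tectonics were unequal: Tctn2 had 16.42 and 17.84 TPM, Tctn3 11.28 and 10.60 TPM, and Tctn1 4.33 and 4.23 TPM, with no overlap between the 3 genes across pools.

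Membrane proteins of the same complex lay in the middle of the range. Tmem231 had 14.01 and 14.84 TPM, and Tmem67, which encodes meckelin, 11.87 and 13.47 TPM. The coiled-coil and C2 domain gene Cc2d2a had 6.41 and 7.20 TPM. The zone's large scaffold genes were low: Rpgrip1l had 5.44 and 5.35 TPM, Nphp4, a nephronophthisis gene, 5.0 and 4.92 TPM, and Cep290 2.74 and 2.59 TPM. Cep290, which links the microtubules of the zone to its membrane, was the lowest of all members in both libraries when all transcripts were summed, with 560.86 and 559.02 counts over a transcript of 8006 nt.

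In the IFT-B particle, which drives transport toward the tip, the genes with the shortest transcripts were the highest. Ift46 had 124.12 and 121.99 TPM, Ift20, whose product also sits at the Golgi, 99.64 and 97.52 TPM, and Ift27, which encodes a small GTPase, 77.41 and 80.80 TPM. Ift57, the member with a pair of X-boxes, had 43.65 and 50.95 TPM, and Ift52, a core subunit, 29.94 and 28.60 TPM. The remaining 3 were lower, with Ift88 at 14.79 and 13.57 TPM, Ift172 at 11.44 and 12.77 TPM and Ift80 at 7.40 and 6.78 TPM. Across the 8 IFT-B members the median was 38.3 ± 2.11 TPM.

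The IFT-A particle, which acts in return transport, was represented by Ift122, at 21.40 and 23.82 TPM, and Ift140, at 13.48 and 15.06 TPM. Dync2h1, the heavy chain of the dynein-2 motor that pulls it, had 12.94 and 12.39 TPM. All 3 lay within the range of the IFT-B members in both pools.

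The BBSome, a coat-like complex, had 5 genes within a narrow range and 1 below it. Bbs4 was highest at 27.49 and 29.43 TPM. Bbs7 had 18.38 and 18.54 TPM, Bbs9 17.82 and 15.69 TPM, and Bbs2 16.28 and 15.84 TPM, while Bbs5 stood at 18.09 and 22.57 TPM. Bbs1, whose product contacts the GTPase ARL6 on the membrane, had 3.88 and 3.30 TPM, below every other BBSome member in both pools. Its 551 and 495 counts, over a transcript of 5581 nt, were near the 494 and 555 counts of Bbs5. The mean transcript length of Bbs5 was 1154 and 998.8 nt, so the gap in TPM between Bbs1 and Bbs5 goes with length. Bbs2, Bbs4, Bbs7 and Bbs9 had shorter transcripts than Bbs1 and also more counts, the fewest being 863 and 941 in Bbs2. Bbs1 was the single BBSome member whose window held an X-box, which lies just after its start.

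Among the membrane and axoneme genes Arl3 (ENSMUSG00000025035.8), which encodes a GTPase that releases lipid-modified cargo inside the cilium, had 177.34 and 167.78 TPM, the highest values of all members. Arl13b, whose product activates ARL3 and is a standard marker of the ciliary membrane, had 7.06 and 7.92 TPM. Inpp5e, a ciliary phosphoinositide phosphatase, had 20.79 and 21.14 TPM, and Cep41, needed for tubulin glutamylation in the axoneme, 9.37 and 10.26 TPM. At the centriole, Ofd1, which lies on chromosome X, had 5.31 and 5.09 TPM and Talpid3 8.63 and 9.64 TPM. All 5 other genes of these groups were far below Arl3 in each pool.

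Replicates differed little in the members. The coefficient of variation of TPM had a median of 5.08% and reached 15.6% in Bbs5. Counts were then scaled with the trimmed mean of M-values (TMM) and compared as log2 ratios of replicate 2 over replicate 1, in genes with a mean count of at least 20. The members' median log2 ratio was 0.01, with an SD of 0.12 across members, beside a median of 0.00 and an SD of 0.40 over the 17048 genes compared. Those genes reach down to a mean count of 20, while the lowest count of a member was 209.68, so the SDs are not like for like. Of the 38 members 0 were past 1.5-fold higher in replicate 2, where 2.21% of all genes were, and 0 were past 1.5-fold lower, where 4.22% were. With so few members, those shares of all genes correspond to hardly any member in either direction.

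The lowest log2 ratio was that of Bbs1, at -0.27 (95% exact counting interval -0.44 to -0.09), followed by Mks1 at -0.26 and Ift80 at -0.25. The highest was that of Ift57, at 0.20 (0.10 to 0.30). These intervals cover counting error only, and treat each count as an independent molecule. Reads copied by PCR are not independent molecules, so the intervals may be too narrow. The interval lay above equality for 5 members, Ift57, Ift140, Tmem67, Tctn2 and Ift172, as it did for 19.3% of all genes. It lay below for 7, Bbs1, Mks1, Ift80, Ift88, Bbs9, Arl3 and Ahi1, as it did for 18.7% of all genes. For the other 26 it included equality. The members' shares were thus near or below those of all genes. In Bbs5 the count ratio was only 0.06 (-0.12 to 0.23) although its TPM differed more, and its mean transcript length, as deposited, was 1154 nt in replicate 1 and 998.8 nt in replicate 2.

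**Figure D3:**
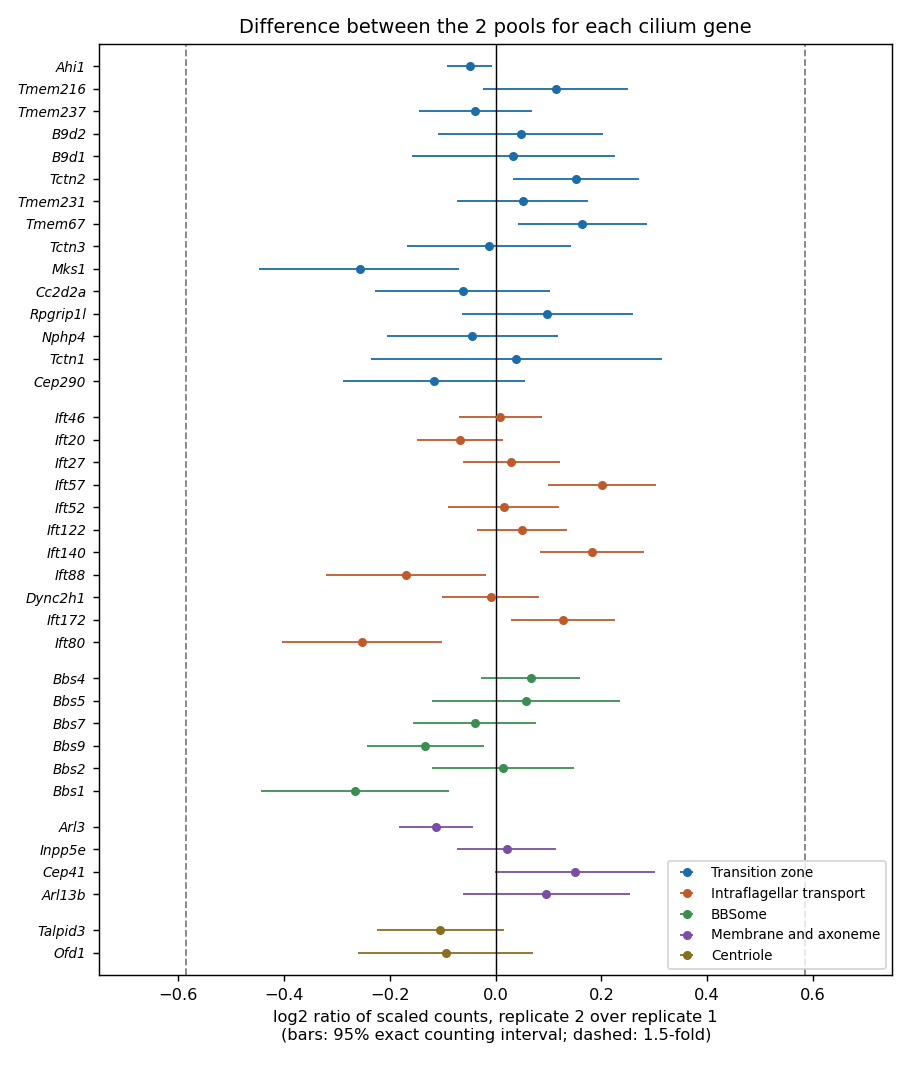
Log2 ratio of TMM-scaled counts, replicate 2 over replicate 1, for each member, with the 95% exact counting interval as bars and 1.5-fold as dashed lines. Points run from -0.27 at Bbs1 to 0.20 at Ift57, and no interval reaches the dashed lines.

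The wider machinery was measured from lists of 89 matched genes. Of these 85, or 95.5%, were detected, and their median level was 15.2 ± 0.0636 TPM. Among the motors, all 9 listed genes were detected, led by the kinesin-2 subunits Kif3a, at 246.23 and 244.40 TPM, and Kifap3, at 97.60 and 102.75 TPM. Kif3a was thus above every member in both pools. Both also serve transport in axons, so their level cannot be assigned to cilia.

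Further IFT-B genes were led by Ift22, at 78.57 and 79.49 TPM, and Ift81, at 53.09 and 41.37 TPM, with 9 of 10 detected. The exception was Ttc30a2, at 0.68 and 0.62 TPM, which has near-identical copies in Ttc30a1 and Ttc30b, so that the split of reads among them is uncertain. All 5 further IFT-A genes were detected, with Ift43 at 29.67 and 30.04 TPM and Wdr35 at 17.91 and 17.53 TPM. All 7 BBSome partners were too, with the GTPase gene Arl6 at 45.01 and 42.77 TPM and Lztfl1, a BBSome regulator, at 40.36 and 34.60 TPM.

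All 13 further genes of the transition zone and its neighbouring inversin compartment were detected, led by Iqcb1, at 41.33 and 46.04 TPM, and Rpgrip1, at 37.78 and 41.57 TPM. The same held for all 14 centriole genes, led by Fbf1, a distal appendage gene, at 44.52 and 47.57 TPM, and Cspp1 at 46.18 and 43.73 TPM. A further list joined Joubert and planar polarity genes with genes of ARL3 partners and cargo carriers, and all 11 matched genes were detected. Its highest was Arl2bp, which encodes a binding partner of ARL2 and ARL3, at 149.61 and 153.85 TPM. Next was Pde6d, which shuttles lipid-modified cargo that ARL3 releases, at 97.93 and 92.76 TPM. Unc119b, another carrier of cargo that ARL3 releases, was lower, at 29.57 and 30.65 TPM. One gene on that list, Katnip, was not matched.

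Ciliary receptors and hedgehog components were lower, with a median of 5.09 ± 0.870 TPM and 11 of 14 detected. Sufu, a repressor of hedgehog signalling, had 18.20 and 19.53 TPM and Adcy3, the adenylyl cyclase of neuronal cilia, 12.63 and 14.31 TPM. The somatostatin receptor gene Sstr3 had 0.62 and 0.53 TPM, the serotonin receptor gene Htr6 0.34 and 0.67 TPM and Pkhd1, a gene of kidney cilia, 0.02 and 0.01 TPM. Among 88 wider genes compared, 1 was past 1.5-fold higher in replicate 2, Htr6, on 20 and 41 counts, and 1 lower, Gli3, a hedgehog effector, at 6.94 and 4.35 TPM. The RFX factors, whose motif is shown above, were all 6 detected, led by Rfx3, at 20.82 and 21.31 TPM, and Rfx4, at 14.40 and 19.18 TPM.

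Markers of cells with other cilia were read in the same libraries. Of 24 genes of motile cilia and multiciliated cells 13 were detected, and their summed level was 276 TPM in replicate 1 and 290 TPM in replicate 2. Most of it came from Tppp3 (166.81 and 160.05 TPM) and Rsph9 (40.07 and 40.69 TPM), and Sntn had a count of 0 in both. Foxj1, the master regulator of motile cilia, had 10.98 and 18.77 TPM. Of 22 such genes compared, 5 were past 1.5-fold higher in replicate 2, where 2.21% of all genes were. They were Foxj1, Mcidas, Ccno, Rsph4a and Cfap126, and the median log2 ratio of the 22 genes was 0.32. In replicate 1 Mcidas, Ccno and Rsph4a were below 1 TPM, and their counts were low. These were 20 and 68 for Mcidas, 16 and 56 for Ccno and 58 and 147 for Rsph4a. Between the same pools the 38 primary cilium genes had a median of 0.01.

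Other tissue markers also differed between the pools. Choroid plexus epithelium, whose cells bear tufts of cilia, had 10 of 12 markers detected, a median log2 ratio of 0.30 and a summed level of 1050 and 1397 TPM, led by Ttr (867.62 and 1183.18 TPM) and Enpp2 (58.65 and 64.02 TPM). Markers of radial glia and cycling progenitors had a median of -0.29 (12 of 12 detected, summed level 2835 and 2805 TPM, led by Fabp7 and Vim). Of these, 9 were lower in replicate 2, Mki67 the most at -0.66. The other 3 were higher, Slc1a3 at 0.19, Fabp7 at 0.02 and Sox2 at 0.01. Postmitotic neuron markers had a median of 0.01 (12 of 12, 5794 and 6054 TPM, led by Tubb3 and Gap43). Meningeal markers had -0.34 (10 of 10, 1493 and 1098 TPM, led by Ptgds and Col3a1), and erythroid markers -0.32 (7 of 7, 15776 and 12390 TPM, led by Hba-a2 and Hbb-bs). The part of these cells in the members' levels and ratios was not tested.

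The tissue label was checked with 12 hindbrain genes, of which 11 were detected, led by Hoxb5 (91.97 and 113.13 TPM) and Gbx2 (30.97 and 34.70 TPM). Of 7 forebrain genes 1 was detected, Lhx2, at 50.71 and 9.96 TPM. Lhx9 had 50.75 and 12.78 TPM, and En1 6.37 and 3.03 TPM, so a set of regional genes was higher in replicate 1. Dlx1, another forebrain gene, had 0.30 and 5.52 TPM and was higher in replicate 2. Here too the link to the members was not tested.

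**Figure D4:**
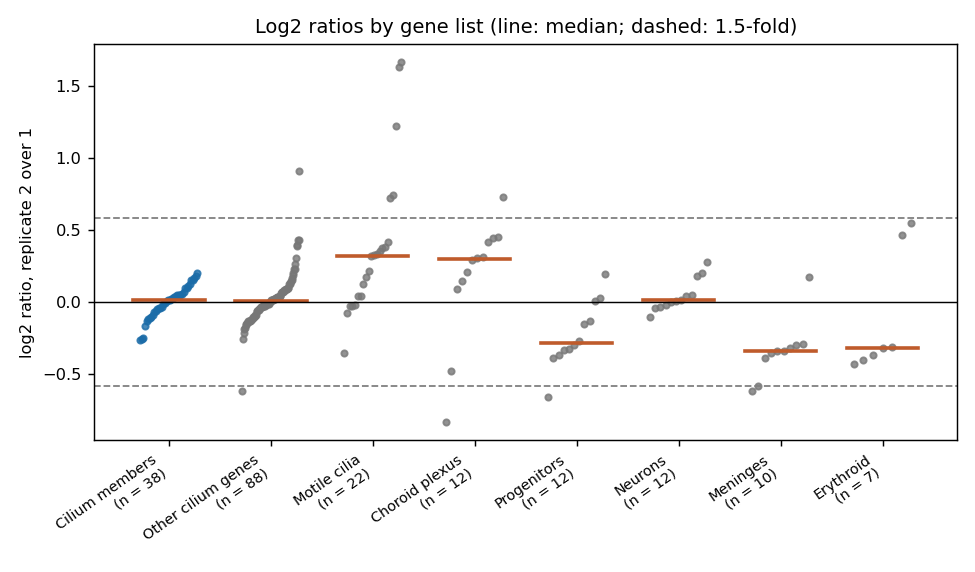
Log2 ratio of replicate 2 over replicate 1 for each gene of the members, the other cilium genes and 6 marker lists, with the median of each list as a line and 1.5-fold as dashed lines. The members sit within -0.27 and 0.20, while the motile cilia and choroid plexus medians stand at 0.32 and 0.30 and the meningeal and erythroid medians at -0.34 and -0.32.

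Transcript tables showed which forms made up the members' levels. Of the 38 members 9 had 1 annotated transcript, among them Cep290, Ift172, Bbs1, Bbs4 and Arl3. A leading transcript, that of highest TPM, was named in the 27 members with several transcripts and at least 5 TPM in both libraries. It was the same in both libraries for 25 and differed for 2, Tmem216 and Ift57, where 6.38% of all such genes differed. It held under 50% of the gene's TPM in both libraries in 2, Ift57 and Bbs9, against 22.5% of all such genes.

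In Tmem216 the forms concerned were coding transcripts of similar length, Tmem216-202 with 52.1% and 39.8% and Tmem216-206 with 34.1% and 41.2% of TPM. In Ift57 the leader passed from Ift57-203, with 35.6% and 29.3%, to Ift57-204, with 32.8% and 38%. Both changes held for TPM only, and by counts each gene had the same leader in both libraries. Tmem216-202 held 54.7% and 42.1% of its gene's counts, and Tmem216-206 33.0% and 40.1%. The 2601-nt form Ift57-201 held 41.1% and 42.0% of the counts of Ift57. Bbs9 was shared among several coding forms, and the largest, Bbs9-209, held 35.2% and 25.4%. The other leaders ranged up to Ahi1-201, with 97.9% and 94.6%.

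Coding transcripts of GENCODE's basic set made up a median of 86.6% of TPM over the members, and 82.8% over the 29 with several transcripts, beside 86.4% over all detected coding genes with several transcripts. In 2 members the leader lay outside that set in both libraries, against 11.3% of coding genes. One was Tctn2, whose leader Tctn2-207, with 73.9% and 80.2%, is a processed transcript in GENCODE M21, which annotates no coding transcript for this gene, while RefSeq lists it as protein-coding. The other was Cc2d2a, where a transcript of 1826 nt that is not in M21 held 42.6% and 55.8%, and the full form Cc2d2a-201 of 5451 nt held 42.0% and 31.1%.

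Retained-intron forms held a large share in some genes. It was 41.2% of TPM in Mks1, 30.2% in Bbs2, 29.4% in Tctn1, 29.2% in Bbs5 and 28.4% in Ift20, as means of both libraries. In Bbs2 it came from forms under 600 nt, which held 32.8% and 27.7% of TPM on 6.56% and 5.22% of the gene's counts. In Ift20 it was the single form Ift20-204, with 27.4% and 29.5%. Libraries of total RNA can hold unspliced RNA, and its part here was not tested.

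Short transcripts raised some of the levels given above, since TPM divides by length. In Ift46 the 229-nt form Ift46-209 held 33.0% and 30.5% of TPM on 5.46% and 4.82% of the gene's counts. For Rpgrip1l-202, of 404 nt, the shares were 41.5% and 33.8% of TPM on 3.05% and 2.24% of counts, and for Ift88-203, of 562 nt and annotated for nonsense-mediated decay, 40.3% and 44.2% on 9.81% and 10.9%. From the basic coding transcripts alone, Ift46 had 64.0 TPM and Ift20 66.6 TPM, so that both then stood below Ahi1 and Ift27. At the low end, Cc2d2a had 2.47 TPM and Tctn1 2.24 TPM by this measure, both below the 2.67 TPM of Cep290, and Tctn2 had none.

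In the motor gene Dync2h1 the leading transcript also differed between TPM and counts. Its form Dync2h1-202, of 2892 nt, held 60.8% and 62.7% of TPM but 30.3% and 29.4% of counts. The 14264-nt form Dync2h1-204 held 20.3% and 24.2% of TPM and 51.3% and 57.6% of counts. Its 3 forms over 13000 nt together summed to 3.01 and 3.32 TPM, about the level of Bbs1.

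**Figure D5:**
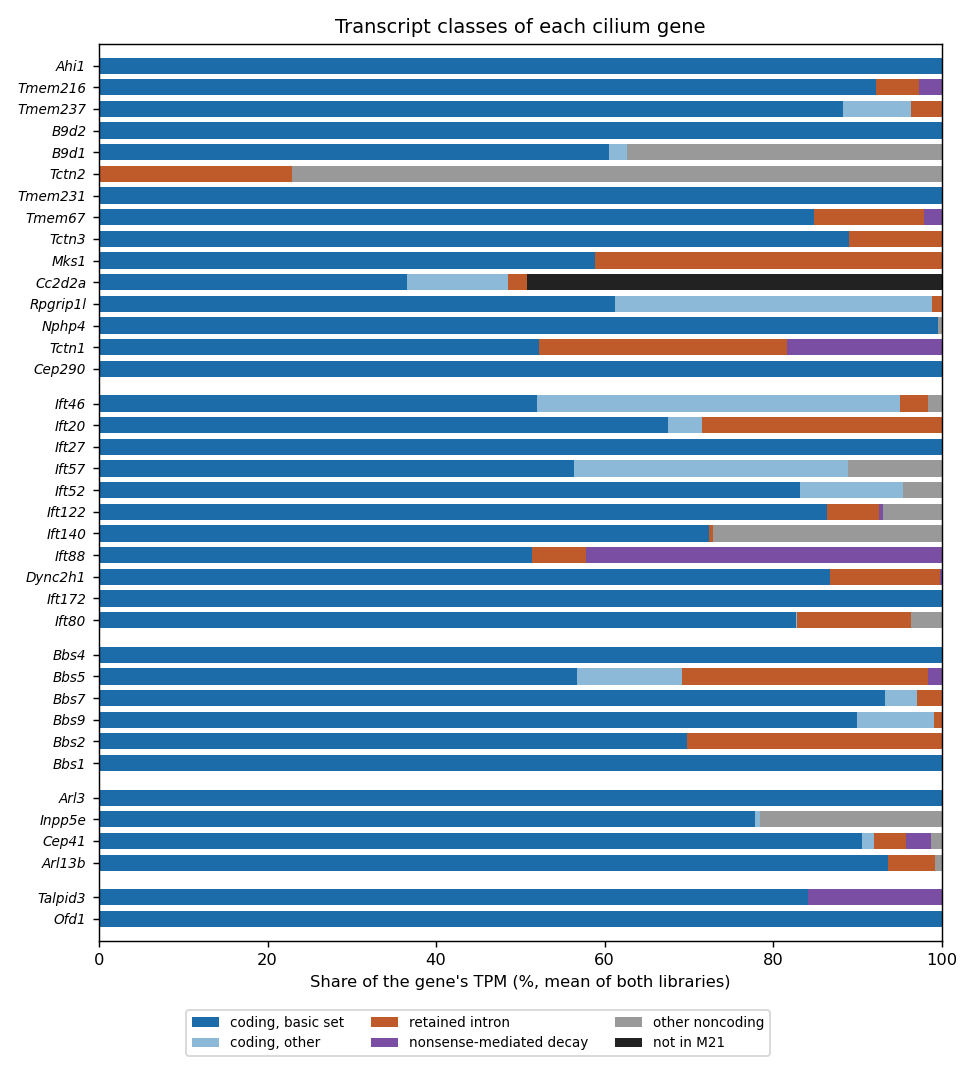
Share of each member's TPM by transcript class in GENCODE M21, as the mean of both libraries, with members grouped by role and ordered by level within a group. Most bars are mainly basic coding transcripts, while Tctn2 has none, Cc2d2a has a large share not in M21 and Mks1 has 41.2% in retained-intron forms.

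Some levels are uncertain because exons are shared with a gene on the opposite strand and the use of strand in counting is not given in the sources used here. This held for 8 members with an overlapping gene at 1 TPM or more. The largest overlaps were 1574 bases of Tctn1 with Hvcn1 (1.53 and 1.35 TPM), 881 bases of Cep290 with 4930430F08Rik (7.95 and 8.72 TPM) and 874 bases of Inpp5e with Pmpca (73.17 and 72.42 TPM). The overlap was 131 to 289 bases for Tmem67 with Rbm12b2, Tmem237 with G730003C15Rik, Bbs4 with Adpgk, Tmem216 with Cpsf7 and Ofd1 with Trappc2. For Cep290, Inpp5e and Ofd1 the partner was higher than the member in both pools.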

How the data were processed

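Total RNA of E15.5 mouse hindbrain was measured in 2 libraries, each with a gene and a transcript table on mm10 and GENCODE M4. Which aligner and quantifier were used, and whether strand was, is not given in the sources used here. Per the file headers, the authors gave estimated counts of reads, which need not be whole. TPM was deposited as scaled over all features of a library, spike-ins included. FPKM was deposited too and used as another detection measure. Posterior means and interval bounds of TPM, a deposited signal, entered as alternatives. The deposited percent of a gene's TPM per transcript was not used, and shares were recomputed.

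Gene annotation was that of GENCODE M21 (GRCm38), and promoters were from RefSeq. Spike-ins held 2.86% and 3.09% of counts and stayed out of library sizes. Ratios used TMM in edgeR 4.0.16 under R 4.3.3 with a prior count of 0.5, and exact Clopper-Pearson intervals. The ratio code was tested on simulated data. Named were every member, the 2 highest of each other list, cilium genes under 1 TPM, markers at 0, and members or wider cilium genes past 1.5-fold; some further genes are named beside them, chosen after their values were seen. Of the forebrain list, 1 gene is not reported here. Members and lists were chosen with earlier results of these data known. Alternatives covered TPM minimums of 0.5 and 2, posterior TPM, the lower TPM bound, FPKM, TPM over coding genes, each library alone, DESeq2 1.42.0 size factors, library and spike-in totals, count minimums, pseudocounts and motif rules.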

Additional observations from a re-analysis of the deposited data

How the results depend on the processing

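All 38 members stayed detected under every planned minimum and unit. Counted from basic coding transcripts alone, an alternative chosen after seeing the data, 37 were detected, because Tctn2 has none. No member passed 1.5-fold under any of the 7 other scalings, filters or units. The count filters among them could not change the members' ratios, since the lowest count of a member was 209.68. The members' median log2 ratio was -0.10 with spike-in totals, where that of all genes was -0.11, and 0.01 to 0.02 in the others. No paired analysis was possible because there was 1 group.

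Group medians moved with the unit. TPM over nuclear coding genes gave 16.1 for the transition zone, 28.8 for intraflagellar transport, 22.4 for the BBSome, 19.6 for the membrane and axoneme and 9.12 for the centriole. Basic coding transcripts alone gave 9.71, 19.5, 13.2, 12.6 and 6.43 TPM in that order. Posterior mean TPM gave 18.3 for the BBSome and 15.9 for the membrane and axoneme. With each library alone the medians were 11.9 to 13.5, 21.4 to 23.8, 17.2 to 17.96, 15.1 to 15.7 and 6.97 to 7.37 TPM in the same order, and the order of the groups was the same in every case. At a gene minimum of 20 TPM, which takes fewer genes, 1 member had a leader under 50%, and with posterior mean TPM the leader differed in 4. The X-box count of 9 became 22 with a single half-site, 5 with the bases before the start and 15 with any base at the variable positions, the last chosen after seeing the data. With 2 pools, no spread between embryos or litters can be given, and depth did not limit detection of any member.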
